A study of Mus musculus with 4 samples.

Results

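Expression of 10 immediate early genes was followed in 4 mouse tibialis anterior muscles: Fos, Jun, Junb, Jund, Egr1, Atf3, Ier2, Dusp1, Zfp36 and Myc. They were chosen by name, as genes known for fast induction. All 10 had a row in each of the 4 tables, among 28989 genes that had a row of their own. Each muscle was cut across its length and every section was sequenced with CEL-Seq2, which counts transcript 3' ends with unique molecular identifiers (TOMO-seq). The labels name the tissue only. They give no strain, age, sex, genotype or treatment, and they do not say whether each muscle is from its own mouse, so p-values measure the spread between these 4 samples, which may be technical. There is 1 group, and position along the muscle is the comparison that the design implies.

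Immediate early genes are switched on within minutes of a stimulus without new protein synthesis, through kinases such as ERK, JNK and p38 that act on factors already bound at their promoters. Fos and Jun proteins pair through leucine zippers into the factor AP-1, while Dusp1 and Zfp36 code for proteins that switch off kinases and destabilize messenger RNA, respectively. In skeletal muscle these genes are known to respond to contraction, to injury and to handling of the tissue.

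The kept sections numbered 37, 45, 46 and 43 in muscles 1 to 4, which makes 171. They held 18924848, 17114433, 26989829 and 22878407 transcripts, and a single section held between 86190 and 1159697. Mitochondrially encoded genes took 59.1% to 66.9% of them. Fibre genes dominated the rest, with Acta1 (skeletal actin) at 2920 to 4008 CPM (counts scaled to a common total per muscle) and the slow myosin Myh7 at 0 to 0.333 CPM. Muscles 1 and 2 carry section barcodes numbered between 296 and 350, and muscles 3 and 4 between 8 and 55. Many genes differ between these sets of muscles. The labels give no batch, and the barcode set and muscle cannot be told apart.

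Jun was by far the most abundant of the 10 and Myc the least. The mean level over the 4 muscles was 159 ± 102 CPM for Jun, 31.8 ± 14.7 for Jund, 9.31 ± 2.499 for Dusp1, 8.70 ± 4.52 for Zfp36, 2.73 ± 1.16 for Junb, 1.97 ± 2.18 for Atf3, 1.56 ± 1.80 for Fos, 0.896 ± 0.260 for Egr1, 0.761 ± 0.137 for Ier2 and 0.174 ± 0.067 for Myc (SD, n = 4). CEL-Seq2 counts 1 end per transcript, so the counts were not divided by gene length. Jun stood above Jund in every muscle, Jund above both Dusp1 and Zfp36, and Ier2 above Myc, without overlap of the ranges of these neighbours. Zfp36 also stood above Junb in every muscle. Dusp1 and Zfp36 overlapped, and so did each neighbouring pair in the order Junb, Atf3, Fos, Egr1 and Ier2.

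**Figure D1:**
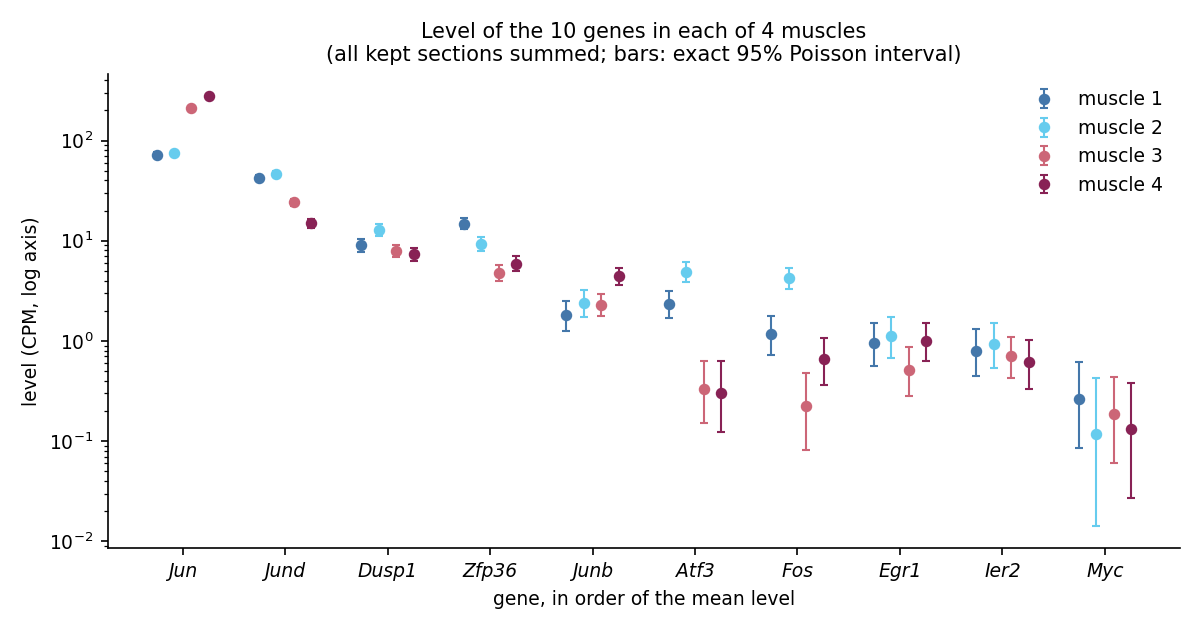
Level of each gene in CPM on a log axis, with 1 point per muscle and exact 95% Poisson intervals that cover counting error only. Jun lies above the other 9 genes in every muscle, and Atf3 and Fos show the widest spread between muscles.

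Jun (ENSMUSG00000052684, chr4:95049034-95052222 on the minus strand of GRCm38) codes for the AP-1 subunit c-Jun, a target of JNK. It had 72.5, 75.3, 210 and 277 CPM in muscles 1 to 4, from 1372, 1288, 5673 and 6339 counts. The first 2 muscles were alike and the other two were both far higher, with no overlap between the barcode sets. Such a gap between sets was common, found in 63.8% of the 13240 genes tested between them. Every one of the 171 sections had a Jun count. The gene Junos lies on the opposite strand over the 5' part of Jun, and its own row had 12.9, 10.3, 2.41 and 2.36 CPM, highest where Jun was lowest.

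Jund (ENSMUSG00000071076, chr8:70698949-70700616, plus strand), the AP-1 subunit known for a steady rather than an inducible level, ran the other way. It had 42.01, 46.1, 24.2 and 14.9 CPM, so that muscles 1 and 2 were both above muscles 3 and 4. The ratio of Jun to Jund counts was 1.73 and 1.63 in muscles 1 and 2 and 8.67 and 18.6 in muscles 3 and 4. Junb (ENSMUSG00000052837, chr8:84974484-84978718, minus strand), an AP-1 subunit that can oppose c-Jun, had 1.80, 2.40, 2.30 and 4.41 CPM from 34, 41, 62 and 101 counts. Muscle 4 was highest and the sets overlapped. With saturated genes (those near the limit of the molecular identifiers) and mitochondrial genes left out of the totals it had 6.16, 8.49, 8.93 and 19.97 CPM, and the sets did not overlap. The 3' end of Junb overlaps that of Prdx2 on the opposite strand, whose row had 21.98 to 30.9 CPM. How strand was used in counting is not given in the sources used here, so counts of Junb are uncertain.

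Fos (ENSMUSG00000021250, chr12:85473890-85477273, plus strand), the AP-1 partner that serum, calcium and contraction induce, had 1.16, 4.21, 0.222 and 0.656 CPM from 22, 72, 6 and 15 counts. Atf3 (ENSMUSG00000026628, chr1:191170296-191218039, minus strand), a stress-induced factor of the same zipper family, had 2.32, 4.91, 0.333 and 0.306 CPM from 44, 84, 9 and 7 counts. Both were highest in muscle 2 and low in muscles 3 and 4. Jun transcripts outnumbered those of Fos in all 4 muscles, by a ratio of 17.9 in muscle 2 and of 946 in muscle 3. A Fos count was found in 14 of 37, 32 of 45, 5 of 46 and 11 of 43 sections. Most sections of muscles 1, 3 and 4 thus gave none. At this depth per section that does not show that Fos was absent.

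Dusp1 (ENSMUSG00000024190, chr17:26505590-26562128, minus strand), a phosphatase that inactivates p38, JNK and ERK, had 9.04, 12.9, 7.97 and 7.34 CPM. Zfp36 (ENSMUSG00000044786, chr7:28376784-28380253, minus strand), which binds AU-rich elements and speeds mRNA decay, had 14.8, 9.29, 4.78 and 5.90 CPM. For both genes muscles 1 and 2 were above muscles 3 and 4, by little for Dusp1. With saturated and mitochondrial genes left out of the totals Dusp1 was higher in muscle 4 (33.2 CPM) than in muscle 1, so its sets overlapped. An antisense gene annotated on the opposite strand of Zfp36, Gm44710, had at most 0.760 CPM.

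Egr1 (ENSMUSG00000038418), a zinc finger factor downstream of ERK, had 0.951, 1.11, 0.519 and 1.005 CPM from 18, 19, 14 and 23 counts. Ier2 (ENSMUSG00000053560, chr8:84661331-84662852, minus strand), a nuclear protein of the early response, had 0.793, 0.935, 0.704 and 0.612 CPM from 15, 16, 19 and 14 counts. Their counting intervals overlapped among all 4 muscles. Myc (ENSMUSG00000022346, chr15:61985391-61990374, plus strand), a growth-promoting factor, had 5, 2, 5 and 3 counts, 15 in all, which allows no comparison. In these whole sections, fewer cells of a type and less RNA per cell cannot be told apart.

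Promoter stretches of the 100 bases before the start are shown for Jun, Fos, Atf3 and Zfp36, which differed between the sets of muscles in the test given further on, Jun in one direction and the others in the opposite one (RefSeq, GRCm38.p6, 5' to 3' on the strand of the gene). Jund differed too, but its RefSeq start lies upstream of the GENCODE gene and its stretch is not shown. The RefSeq starts of Atf3 and Zfp36 lie inside the longer GENCODE genes. Capitals mark the motif named for each. The Jun stretch (chr4:95052223-95052322, minus strand) holds TGACNTCA, an AP-1 and ATF type of site. The Fos stretch (chr12:85473790-85473889, plus strand) holds TGACG, the core of the cyclic AMP response element. In the Atf3 stretch (chr1:191183334-191183433, minus strand) the same core lies on the other strand. The Zfp36 stretch (chr7:28379229-28379328, minus strand) holds a CArG box, the type of site that SRF binds.
Jun: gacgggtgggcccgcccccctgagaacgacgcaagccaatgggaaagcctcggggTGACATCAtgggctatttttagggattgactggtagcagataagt
Fos: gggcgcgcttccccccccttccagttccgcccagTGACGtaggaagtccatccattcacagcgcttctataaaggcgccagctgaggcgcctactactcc
Atf3: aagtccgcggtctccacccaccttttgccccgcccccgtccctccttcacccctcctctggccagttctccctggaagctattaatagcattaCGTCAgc
Zfp36: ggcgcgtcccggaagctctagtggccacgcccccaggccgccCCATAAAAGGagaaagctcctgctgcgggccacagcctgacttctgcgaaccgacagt

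The RefSeq table held promoters for 7 of the 10 genes, and motifs were searched on both strands in the 250 bases before the start. One of the 7 is Jund, whose window had no match but lies outside its GENCODE gene. The window of Dusp1, like those of Atf3 and Zfp36, lies inside its longer GENCODE gene. TGACNTCA was in 2 of the 7, in Jun at bases 45 to 38 before the start and in Dusp1 at bases 143 to 136, and in 7.49% of all 32851 promoters. The Dusp1 match is the full palindrome TGACGTCA, which 1.55% of promoters hold. TGACG was in 4 of the 7 (Fos, Junb, Atf3 and Dusp1) and in 17.8% of promoters. In Dusp1 2 of its 3 matches lie inside the palindrome. The CArG box was in 1 of the 7 (Zfp36, bases 58 to 49) and in 1.47% of promoters, and the EGR site GCGGGGGCG in 1 of the 7 (Zfp36, bases 105 to 97) and in 2.57%. A match describes these letters only.

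Along the muscle, the mean level of Jun at the ends was lower than in the middle. For this comparison the kept sections of a muscle were assigned to 5 equally long zones, numbered from the first end, and summed. Jun had 54.3, 62.98, 97.3, 73.2 and 73.9 CPM in zones 1 to 5 of muscle 1. In muscle 2 it had 53.1, 88.4, 82.6, 73.1 and 67.9 CPM. In muscle 3 it had 172, 235, 224, 213 and 199 CPM. In these 3 muscles the zones at both ends were below the middle zone. Muscle 4 had 252, 260, 287, 309 and 277 CPM, a shallower profile with its highest value in zone 4. On the TMM scale its last zone (351) was above its middle zone (332).

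The mean of both end zones was below the middle zone by 0.34, 0.44, 0.34 and 0.03 on the log2 scale of TMM-scaled levels in muscles 1 to 4, lower in 4 of 4. The fit over all 4 muscles gave -0.27 ± 0.07 (SE), with an adjusted p of 0.0297 in edgeR's quasi-likelihood test. Of the 7 genes that passed the count filter Jun was the only one called, where 1.45% of the 9317 genes tested were called in either direction and 0.826% were lower at the ends. The direction of calls over all genes depended on the tool, with 58 higher and 77 lower at the ends in edgeR, 74 and 28 in DESeq2 and 18 and 177 in limma with equal section weights. Jun was called in each. Egr1, Ier2 and Myc did not pass the filter. The call was lost when muscle 1, 2 or 3 was left out (edgeR adjusted p = 0.129, 0.206 and 0.382) and remained without muscle 4 (-0.36, edgeR adjusted p = 0.00276). With 3 zones the difference was -0.15 and was not called (edgeR adjusted p = 0.412).

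Jund had a difference of the same size but was not called, at -0.33 ± 0.10 (edgeR adjusted p = 0.0823). Its middle zone had 53.8, 51.7, 26.97 and 17.7 CPM in muscles 1 to 4. The first zone had 30.3, 43.02, 18.1 and 14.9 CPM. The last zone had 34.7, 19.1 and 16.4 CPM in muscles 2 to 4. The first and the last zone were both below the middle one in each muscle, but on the TMM scale of the fit the last zone of muscle 4 (20.8) was above its middle zone (20.5). Without muscle 4 Jund was called at -0.38 (edgeR adjusted p = 0.0446).

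The other 5 tested genes did not pass. Atf3 was at -0.72 ± 0.37, Fos at -0.43 ± 0.37, Junb at -0.19 ± 0.23, Zfp36 at -0.10 ± 0.15 and Dusp1 at -0.07 ± 0.17, with edgeR adjusted p from 0.452 to 0.938. The sign for Atf3, Zfp36 and Dusp1 changed when 1 muscle was left out. The 5 zones of muscle 2 held 9, 24, 31, 17 and 3 counts of Atf3, fewest at the ends. The end zones of muscle 2 were also its shallowest, with 2975013 and 1989683 transcripts beside 4856327 in its middle zone. The zones of muscle 3 held 4, 2, 1, 0 and 2 counts of Atf3.

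**Figure D2:**
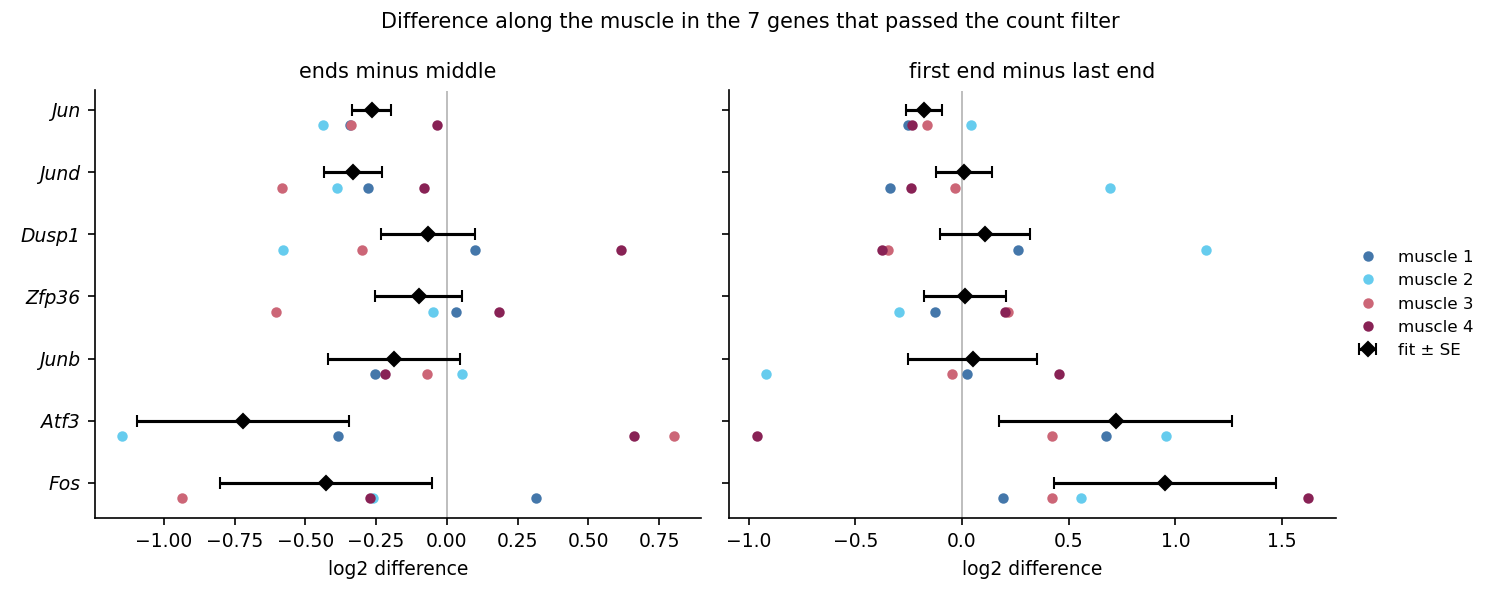
Log2 difference between both ends and the middle (left) and between the first and last end (right) for the 7 genes that passed the count filter, with the edgeR fit ± SE as diamonds and each muscle as a point. All 4 muscles lie below 0 for Jun and for Jund on the left, whereas the fits of the other genes have wide errors.

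Between the first and the last end edgeR called none of the 7, where 3.18% of genes were called. DESeq2 called 0 of the 2 to which it gave an adjusted p, Jun and Jund. At an unadjusted p below 0.05 there was 1, Jun. It was at -0.18 ± 0.08, with an unadjusted p of 0.0376 and an edgeR adjusted p of 0.327. Fos had the largest fitted difference, 0.95 ± 0.52 (edgeR adjusted p = 0.446), on 115 counts in all 4 muscles. Over any difference among the 5 zones Jun was called (edgeR adjusted p = 0.0184) and the other 6 were not, where 3.98% of genes were called. Neither zone difference was shown to depend on the barcode set, with edgeR adjusted p of the zone by set terms from 0.981 to 1 for ends against middle and from 0.826 to 0.988 for first against last end. Over all 9317 genes these terms were called in 0% and 0.0859%, so this holds for nearly any gene. At an unadjusted p below 0.05 there was 1 for the former (Atf3, 0.0293) and 2 for the latter (Fos, 0.0244, and Dusp1, 0.0216).

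Single sections showed the profile at finer scale. A smooth curve of position (a natural spline with 4 degrees of freedom) was fitted within each muscle, which tests against the spread between sections of that muscle only. Jun changed with position in muscle 2 (edgeR adjusted p = 1.26e-05) and muscle 3 (edgeR adjusted p = 4.39e-07). Its fitted level, on the TMM scale, ran from 40.8 CPM at the last section to 95.1 CPM at relative position 0.341 in muscle 2. In muscle 3 it ran from 106 CPM at the first section to 245 CPM at position 0.326.

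Jund changed with position in the same muscles, 2 (edgeR adjusted p = 0.0125) and 3 (edgeR adjusted p = 0.00372). On the TMM scale its fitted level ran from 22.6 to 56.5 CPM in muscle 2 and from 8.99 to 30.6 CPM in muscle 3. Neither gene passed in muscle 1 or in muscle 4, where Jun had an adjusted p of 0.114 in edgeR. Among the members tested, 0 of 9, 2 of 9, 2 of 7 and 0 of 8 were called in muscles 1 to 4, beside 1.22%, 3.06%, 3.44% and 1.39% of all genes. At an unadjusted p below 0.05 there were 2 members in muscle 1 and 1 in muscle 4. With saturated and mitochondrial genes left out, Jund was also called in muscle 1 (edgeR adjusted p = 0.0409).

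**Figure D3:**
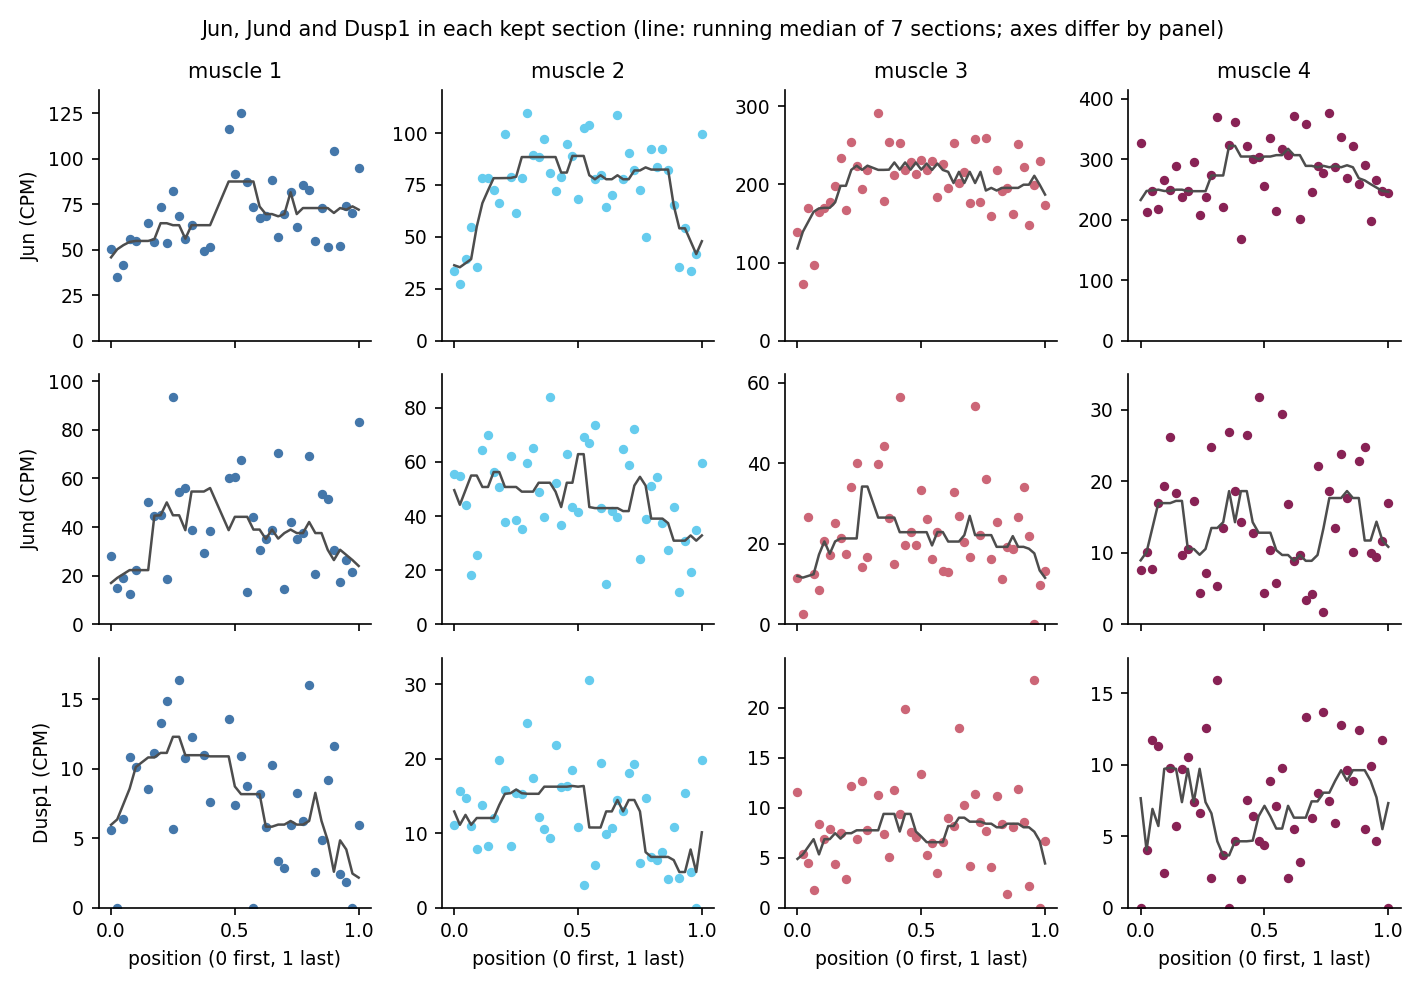
Level in CPM of Jun, Jund and Dusp1 in each kept section against relative position along the muscle, from 0 (first) to 1 (last), with a running median over 7 sections. Jun lies low at both ends of muscle 2 and at the first end of muscle 3, and Jund is scattered widely around its line in all 4 muscles.

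By a measure of spread without shrinkage, Jund varied more from section to section than genes of like level, and Jun less in 3 of 4 muscles. The lowest, median and highest section of Jund had 12.4, 38.2 and 93.6 CPM in muscle 1, 11.8, 44.2 and 84.1 in muscle 2, 0, 20.6 and 56.5 in muscle 3, and 1.71, 13.4 and 31.8 in muscle 4. Around the smooth curve, and beyond counting error, its coefficient of variation was 28.5%, 30.8% and 38.3% in muscles 1, 3 and 4 and 20% in muscle 2. The median of genes within 1.5-fold of its level was between 10.7% and 11.7%. In the 4 muscles 97.1%, 88.9%, 98.4% and 98.8% of these genes varied less than Jund.

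Jun had 15.9%, 0%, 5.67% and 6.87% by the same measure, and 78.7%, 9.44%, 2.27% and 3.19% of genes of like level varied less. Neighbouring medians for Jun were 10.9% to 13.6%. This measure has no test. It was chosen after seeing that edgeR's shrunken dispersions put every gene near the trend (Jund 13.01% to 14.8%, Jun 13.5% to 16.2%). Those shrunken dispersions were the measure planned. By them 79.5%, 60.8%, 67.6% and 56.4% of genes of like level varied less than Jun in muscles 1 to 4. For Jund these shares were 97.9%, 59.97%, 39.3% and 43.9%. The rank of both genes among genes of like level thus depended on the measure. The antisense gene annotated over Jund, Gm11175, has no row in these tables.

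Jun and Jund were correlated over sections. Pearson's r of their log2 CPM was 0.48, 0.46, 0.55 and 0.19 over the 37, 45, 46 and 43 sections of muscles 1 to 4, and Spearman's rho was 0.45, 0.41, 0.57 and 0.26. After the curve of position was removed r was 0.41, 0.49, 0.40 and 0.25. With saturated and mitochondrial genes left out of the section totals it was 0.24, 0.41, 0.57 and 0.05. Sections share library, depth and position, so these values are descriptions with no test.

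Jun and Dusp1 gave r of 0.24, 0.30, 0.33 and 0.09, and Jund and Dusp1 0.29, 0.34, 0.04 and -0.24. The other 7 genes had fewer than 3 counts per section in at least 1 muscle and were not correlated. In muscle 2 the highest CPM of Fos, Atf3 and Dusp1 fell in the same section, on 3, 3 and 5 counts. That section held 164007 transcripts, where the median section of muscle 2 held 322070, so a few counts give a high CPM there.

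The genes most like the averaged profile of Jun, Jund and Dusp1 were Ogdh, a subunit of the 2-oxoglutarate dehydrogenase of the citric acid cycle (mean r over the 4 muscles 0.63), the RNA-binding protein Pcbp2 (0.59), the respiratory chain protein Ndufa4 (0.58), the actin-binding protein Pfn1 (0.57) and Ptma, prothymosin alpha (0.57). They were followed by the peroxisomal import receptor Pex5 (0.54), hexokinase Hk2 (0.53), the fast myosin Myh1 (0.53), the transcription factor Tcf4 (0.53) and the tropomyosin Tpm2 (0.52). Likeness was the mean r with that profile, and its median was 0.19 over the 2720 genes whose mean reached 10 CPM in every muscle. Of these 10 genes 6 were also called lower at the ends than in the middle. They were ranked over the same sections, so this is no separate evidence.

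With all genes in the section totals, levels of Jun followed the summed markers of several cell types over sections. Summed markers of fibro-adipogenic progenitors (Pdgfra, Dcn, Gsn, Col1a1, Col3a1, Mfap5 and Cxcl14), the connective tissue cells between fibres, had an r with Jun of 0.74, 0.63, 0.61 and 0.51 in muscles 1 to 4. The median gene had 0.30, 0.25, 0.32 and 0.17. Endothelial markers had an r with Jun of 0.45, 0.56, 0.59 and 0.42 (median gene 0.28, 0.21, 0.30 and 0.25), smooth muscle and pericyte markers 0.32, 0.56, 0.71 and 0.25 (median gene 0.27, 0.20, 0.28 and 0.22) and macrophage markers 0.27, 0.50, 0.62 and 0.33 (median gene 0.19, 0.18, 0.28 and 0.15). The share of mitochondrial transcripts had an r with Jun of -0.45, -0.40, -0.48 and -0.46. These transcripts are part of the section totals, so a higher share by itself lowers the CPM of other genes, not of Jun alone. Values given here for endothelial, smooth muscle and pericyte, and macrophage markers are with all genes in the totals, where the median gene also had a positive r. They do not show whether Jun followed these markers once saturated and mitochondrial genes were left out. The fibro-adipogenic markers are thus not shown to stand apart from these other lists. Once saturated and mitochondrial genes were left out, the r of Jun with the fibro-adipogenic markers was 0.60, 0.48, 0.41 and 0.41. The median gene was then at 0.01, 0.00, 0.01 and 0.00.

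For Jund the r with the same markers after this step was 0.40, 0.14, 0.47 and 0.00. With the markers of slow or oxidative fibres Jun had 0.16, 0.35, 0.77 and 0.24. At the ends 4 of the 7 fibro-adipogenic markers and 3 of 3 tested slow or oxidative markers were lower than in the middle, as Jun was, beside 0.826% of all genes. Markers of Schwann cells (4 of 5), of the neuromuscular junction (2 of 3), of endothelial cells (1 of 7) and of macrophages (1 of 4) were lower too, and those of fat cells (2 of 2) and tendon (2 of 5) were higher at the ends. DESeq2 called 1 of the 4 fibro-adipogenic markers and 1 of 1 slow or oxidative marker to which it gave an adjusted p, and called none of the other markers named here, most of which it gave no adjusted p. The summed fibro-adipogenic level was 607, 498, 549 and 442 CPM in muscles 1 to 4 and none of its 7 markers was at 0. The part of these cells in the level of Jun was not tested.

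**Figure D4:**
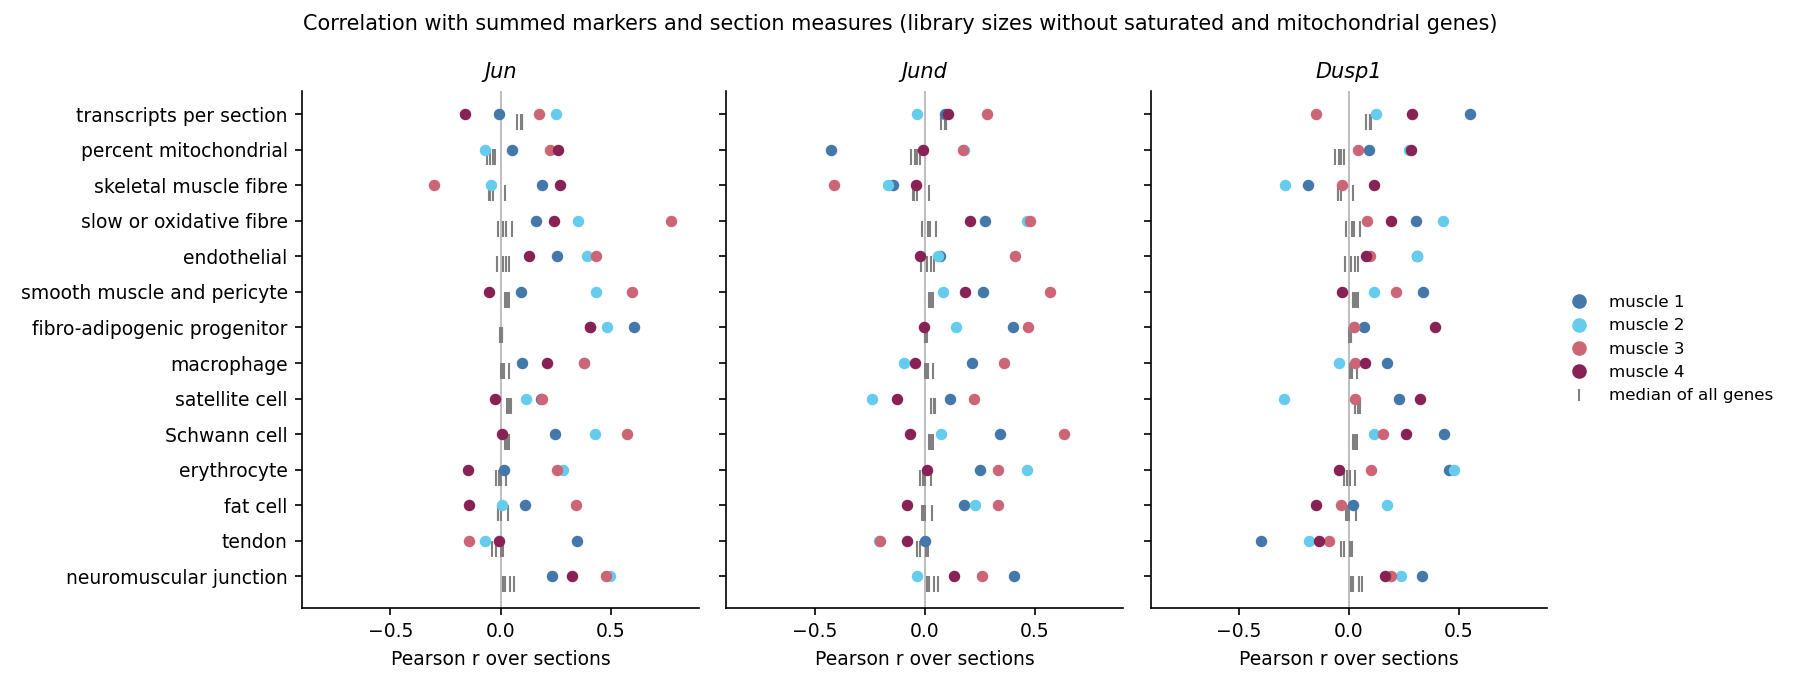
Pearson's r over the sections of each muscle between Jun, Jund or Dusp1 and summed marker levels or section measures, with section totals that leave out saturated and mitochondrial genes. Points are muscles and grey ticks the median over genes of at least 10 CPM. The r of Jun with the fibro-adipogenic markers lies between 0.41 and 0.60.

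These genes also differed between the sets of muscles. The comparison of muscles 3 and 4 with muscles 1 and 2 was added after the data were seen, and it cannot be told apart from the barcode set or anything else the muscles of a set share. It called 26.7% of the 13240 genes tested, so a call here is common. Among the 9 members tested 5 were called, and Myc did not pass the filter. A gene that is low in 1 set passes the filter through the other, so this count is a description.

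Jun was higher in muscles 3 and 4 by 2.04 ± 0.25 on the log2 scale (edgeR adjusted p = 5.00e-04). Atf3 was lower, at -3.20 ± 0.45 (edgeR adjusted p = 0.00115), and so was Fos, at -2.34 ± 0.67 (edgeR adjusted p = 0.0302). Jund was lower, at -0.91 ± 0.18 (edgeR adjusted p = 0.00633), and Zfp36 was lower, at -0.88 ± 0.28 (edgeR adjusted p = 0.0419). The AP-1 subunits differed in both directions, with Jun higher and Fos and Jund lower in the same muscles. With equal weight for each section in limma, Atf3 was at -0.60 and Fos at -0.42, both still called.

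Junb was at 0.99 ± 0.40 (edgeR adjusted p = 0.0938) and was not called, nor were Dusp1 at -0.23, Egr1 at -0.16 and Ier2 at -0.11. Only Jun and Atf3 were called whichever muscle was left out. Fos was not called without muscle 2 (-1.11, edgeR adjusted p = 0.310) or without muscle 3 (-1.54, edgeR adjusted p = 0.0630), Jund not without muscle 2 (edgeR adjusted p = 0.0773), and Zfp36 not without muscle 1 (-0.50, edgeR adjusted p = 0.376) or muscle 3 (edgeR adjusted p = 0.0994). Junb was called without muscle 3, at 1.54, and with no filter on low counts, at 1.02. Where 1 muscle was left out, the lone muscle of its set was assumed to vary like the other set. The summed markers of slow or oxidative fibres moved with the sets, with 721, 601, 244 and 122 CPM in muscles 1 to 4 and 3 of 5 tested markers lower. So did those of fat cells, with 4.65, 8.30, 2.297 and 1.53 CPM and 3 of 3 lower, beside 13.6% of all genes. The erythrocyte sum was 2759, 2766, 1067 and 1722 CPM, but only 2 of 5 markers were called lower. Hba-a2 had 862, 859, 15.4 and 18.1 CPM, whereas Hba-a1 had 1248, 1243, 784 and 1312 CPM. Hba-a1, Hbb-bt and Alas2 were not called, at 0.09, 0.03 and 0.72 on the log2 scale. The part of these cell types in the differences of the members was not tested.

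**Figure D5:**
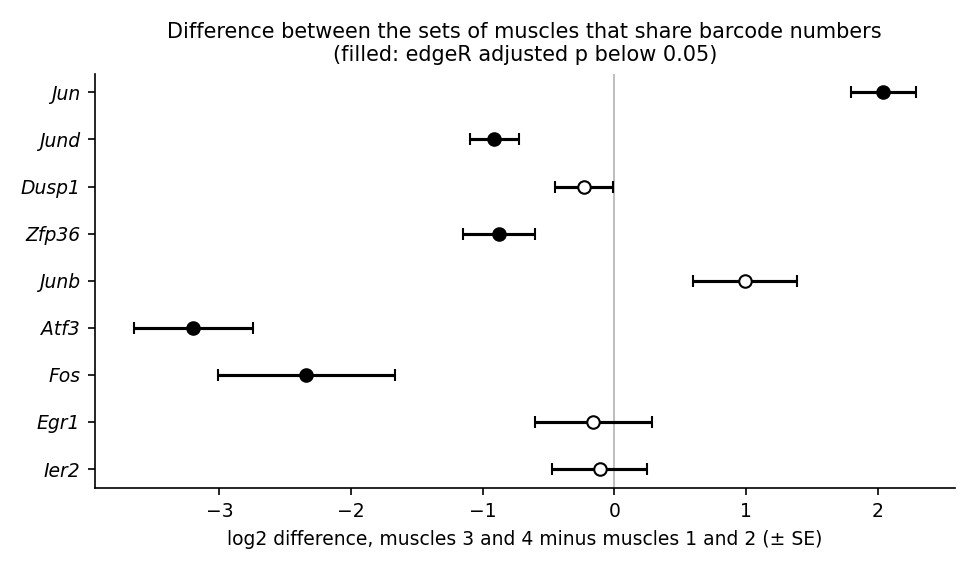
Log2 difference of 9 genes between muscles 3 and 4 and muscles 1 and 2, with its SE, filled where the edgeR adjusted p is below 0.05. Jun lies at 2.04, and Jund, Zfp36, Fos and Atf3 lie between -0.88 and -3.20.

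Of 49 further immediate early genes 32 were tested by zone, 1 was lower at the ends, where 0.826% of all genes were, and 0 higher. It was Cebpb, a bZIP factor of inflammation and differentiation, at -0.57 ± 0.12 (edgeR adjusted p = 0.00189). The single muscles gave -0.78, -0.54, -0.70 and 0.07. The highest of these values was in muscle 4, as for Jun. The list had a median of -0.11, beside -0.01 over all genes. DESeq2 called 0 of the 2 genes of the list to which it gave an adjusted p.

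Of 16 tested upstream kinases and promoter-bound factors edgeR called 0 between ends and middle (3 at an unadjusted p below 0.05) and DESeq2 0 of the 5 to which it gave an adjusted p. In edgeR 1 was lower in the first than in the last end, the calcium-dependent kinase Camk2a (-0.50 ± 0.10, edgeR adjusted p = 5.36e-04). Of 20 tested dimer partners, co-repressors and relatives 1 was lower in the first end, the bZIP factor Maf (-0.27 ± 0.07, edgeR adjusted p = 0.0254). Of 13 heat shock and stress genes edgeR called 0 for either difference (3 and 2 at an unadjusted p below 0.05) and DESeq2 0 of the 6 and 10 with an adjusted p. The chaperone Hsph1 differed among the 5 zones (edgeR adjusted p = 0.0354).

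Between the sets of muscles the further immediate early genes went in both directions, with 7 of 43 tested higher and 13 lower in muscles 3 and 4, beside 13.1% and 13.6% of all genes. Fosb, a relative of Fos, was lower at -2.28 ± 0.58 (edgeR adjusted p = 0.0179), and so was Gadd45g at -3.07 ± 0.35 (edgeR adjusted p = 4.08e-04). Srf, whose protein binds CArG boxes, was higher at 1.42 ± 0.21 (edgeR adjusted p = 0.00151). These names, like those of the next sentences, were chosen after their values were seen.

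Of 18 upstream kinases and factors 6 were higher and 0 lower, among them Mapk9, which codes for a JNK, at 0.86 ± 0.17 (edgeR adjusted p = 0.00500). The other JNK gene of that list, Mapk8, was not called, at 0.16 ± 0.17 (edgeR adjusted p = 0.520). Of 16 heat shock and stress genes 2 were higher and 4 lower. The 4 were the metallothioneins Mt1 (-3.68 ± 0.27) and Mt2 (-4.95 ± 0.36), the cell cycle inhibitor Cdkn1a (-3.17 ± 0.22) and the mTOR inhibitor Ddit4 (-4.07 ± 0.38). Of 22 dimer partners and relatives 6 were higher and 3 lower. Beside the counts of each of these lists stand 13.1% of all genes higher and 13.6% lower.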

How the data were processed

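The authors deposited, for each of 4 muscles, a table of estimated counts of genes under 96 section barcodes. The submitters' processing notes name STAR 2.7.7a and GRCm38. Counting program, annotation and strand use: not given in the sources used here. Values matched whole UMIs corrected for collisions among 4096 possible UMIs. The authors also deposited a filtered table of normalized signal per section, used here only to find the sections they kept, ordered by barcode number; the barcode list was not used. Rows naming several genes (0.58% to 0.93% of counts) were left out. The 22 genes with at least 90% of UMIs used in a section, none of them a member, are called saturated.

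Counts were summed per muscle and zone (20 sums of 1989683 to 6604613 transcripts), rounded, filtered with filterByExpr, scaled by TMM and tested with edgeR 4.0.16 (R 4.3.3), with the muscle as a block because its zones come from 1 sample. P-values were adjusted by Benjamini-Hochberg over all genes tested, at 0.05. Within a muscle, genes with a count in 25% of sections were tested on single sections. Correlations used log2 CPM with a prior count of 2. Alternatives used DESeq2 1.42.0 and limma 3.58.1. Fits were tested on simulated data. Gene positions are from GENCODE.

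All 10 members are named, and of the lists of related genes those called in a zone contrast (at most 5 per contrast), besides the 10 genes most like the members over sections. Members and lists were chosen with earlier results of these data known. Poisson intervals (95%) cover counting error only.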

Additional observations from a re-analysis of the deposited data

Results flagged for a closer look

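Transcripts of these genes also appeared under the 213 barcodes that the authors did not keep, which together held 2.99% of all transcripts. There were 247 Jun counts, 85 of Jund, 18 of Dusp1, 18 of Zfp36, 7 of Junb, 6 of Atf3 and 5 of Egr1, all above the 3 counts that a count of 0 allows. There are no control libraries to set them against. Jun had 56.3, 34.8, 107 and 197 CPM in these barcodes of muscles 1 to 4, so muscles 3 and 4 were again the higher ones. No muscle stood apart from the other 3 by Dixon's 95% criterion in any of 24 groups of 4 values. The groups were levels and zone differences of the members, and chance alone gives about 1 group in 20. The criterion looks only for 1 value apart from the other 3, so it does not register a gap between the barcode sets.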

How the results depend on the processing

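The depth limits Egr1, Ier2 and Myc, whose counts could not be tested by zone. Members called for ends against middle (1, Jun) numbered 0 with no filter on low counts (Jun -0.28), with 3 zones (Jun -0.15) and in muscles 1 and 2 alone (Jun -0.37) or muscles 3 and 4 alone (Jun -0.19), and 0 to 2 when a muscle was left out (Jun -0.36 to -0.22). Genes called in all (135) numbered 32 with 3 zones, 44 and 55 within the sets, and 38 to 183 when a muscle was left out. With no replicate block the fit gave 0 genes for ends against middle (Jun -0.20, 0 members), 1 for first against last end and 4 for any difference (0 members); the block is the muscle itself. Genes called for first against last end (296) numbered 166 with limma, 161 and 74 within the sets, and 87 to 201 when a muscle was left out. For any difference (371 genes, 1 member) there were 179 and 158 within the sets and 173 to 327 when a muscle was left out; Jun was lost with 3 zones and within both sets (0 members), and without muscle 2 or 3 (0 to 1 members). Between the sets 1435 to 4236 genes and 3 to 5 members were called when a muscle was left out. Members called by position numbered 1 in muscle 1 with saturated and mitochondrial genes left out and 1 in muscle 2 with 6 spline degrees of freedom. Without shrinkage the mean spread was 7.11% for Jun, 29.4% for Jund and 6.79% for Dusp1. Changes of sign were all in genes that were not called. For ends against middle these were Dusp1 with 3 zones (0.047), in muscles 3 and 4 alone (0.16) and without a muscle (-0.29 to 0.14, positive without muscle 2 or 3), Atf3 without muscle 2 (range -0.94 to 0.076) and Zfp36 without muscle 3 (range -0.19 to 0.025). For first against last end they were Zfp36 with 3 zones (-0.094), limma (-0.095), no replicate block (-0.065), muscles 1 and 2 alone (-0.19) and without a muscle (-0.090 to 0.098), Junb with DESeq2 (-0.013), 3 zones (-0.055), without the outermost sections (-0.0033) and without muscle 4 (range -0.37 to 0.25), Jund in muscles 3 and 4 alone (-0.11) and without muscle 2 (range -0.21 to 0.19), and Dusp1 in muscles 3 and 4 alone (-0.34) and without muscle 2 (range -0.15 to 0.28). Between the sets they were Dusp1 (range -0.47 to 0.062) and Ier2 (-0.23 to 0.023) without muscle 2 and Egr1 without muscle 3 (-0.85 to 0.43). The causes of these changes were not tested.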
